A study of Canis lupus familiaris with 20 samples.

Results

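The constitutive proteasome genes of the dog retina are described here, in eyes given ciliary neurotrophic factor (CNTF) and in eyes given phosphate-buffered saline (PBS). Members were the genes whose name on the array begins with PSMA to PSMG and a digit. PSMB8, PSMB9 and PSMB10, which encode the interferon-inducible catalytic subunits, were left out. The rule found 38 genes with 57 probes among 13457 named genes and 43603 probes, and each gene was read from the probe with the highest mean signal. Of these, 12 encode subunits of the 20S core (6 PSMA and 6 PSMB), 17 belong to the PSMC and PSMD genes of the 19S cap, and 4 are PSME activators. The rest are the inhibitor gene PSMF1, the 3 core assembly chaperone genes PSMG1, PSMG2 and PSMG3, and PSMC3IP, which encodes a meiotic recombination factor and shares only the letters of its name.

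The 26S proteasome degrades proteins tagged with ubiquitin. Its barrel-shaped 20S core is built of alpha rings, which gate the entrance, and beta rings, which hold the proteolytic sites. The 19S cap docks on the alpha ring, recognises and removes ubiquitin, and unfolds the substrate with a ring of ATPases. Other caps, made of PSME proteins, open the core without ubiquitin or ATP. Interferons raise PSME1 and PSME2 together with the inducible catalytic subunits. In photoreceptors the proteasome is known for clearing misfolded proteins of the visual cascade.

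The study measured retinal RNA of 10 dogs from a research colony with 1 array per eye. There were 4 groups of 5 eyes, all taken 1 week after an injection into the vitreous. CNTF, a cytokine that signals through gp130, JAK and STAT3, was given at 12 µg to the right eyes, and PBS to the left eyes. The groups were CNTF eyes of CNGB3m/m mutants, PBS eyes of the same mutants, CNTF eyes of normal dogs, and PBS eyes of the same normal dogs. Mutants carry the D262N missense change in CNGB3, a subunit of the cone channel, and lack cone function. Of the normal dogs, 4 were CNGB3+/m carriers and 1, number 3, was CNGB3+/+. Normal dogs were all male, while 3 mutants were female and 2 male. Sample labels give an age of 8.9 weeks for normal dogs and 10.7 to 11.5 weeks for mutants, whereas the design text says about 11 months for all, so the age is not settled. Retina and choroid were both collected, and the tissue is labelled retina.

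Values are log2 of the array signal minus log2 of that array's 75th percentile, so 0 is the level of a probe at that percentile. Levels of different genes come from different probes and cannot be ranked against each other. A gene was called where limma gave a Benjamini-Hochberg adjusted p under 0.05 over all 29334 probes tested. In bulk retina, fewer cells of a type and less RNA per cell cannot be told apart. Of the 38 members, 34 were tested. PSMA8, the alpha subunit known from testis, was not well above background on any array, and PSMB11, the beta subunit known from thymus, was so on 1. PSMC4 and PSMD2 were bright but their spots were marked non-uniform on 18 of 20 arrays.

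STAT3, induced by gp130 cytokines, rose in CNTF eyes by 1.60 ± 0.12 in mutants and 2.18 ± 0.12 in normal dogs (log2 ± SE), in 5 of 5 dogs of each genotype. The CNGB3 probe fell in CNTF eyes by 0.94 ± 0.19 in mutants and 1.32 ± 0.19 in normal dogs; since the mutation is a single substitution, the probe does not check the genotype. Treatment ran along the slides. Slide 1 held PBS eyes of normal dogs only and slide 5 CNTF eyes of mutants only, and no slide held CNTF and PBS eyes of the same genotype. Summed signal of 8 microglia and macrophage markers was 23.5 to 38.9 in CNTF eyes against 6.68 to 9.63 in PBS eyes of mutants, and 22.5 to 35.4 in CNTF eyes against 4.66 to 6.25 in PBS eyes of normal dogs, in units of the 75th percentile. For 10 photoreceptor markers the sums were 370 to 603.9 in CNTF eyes against 587.9 to 1021 in PBS eyes of mutants, and 428.1 to 614.7 in CNTF eyes against 497.3 to 678.5 in PBS eyes of normal dogs. Over all probes tested, 11.6% rose and 17.3% fell in mutants, and 23.6% rose and 27.6% fell in normal dogs. Of the microglia markers, 7 of 8 rose in mutants and 8 of 8 in normal dogs. Of the photoreceptor markers, 8 of 10 fell in mutants, while 5 fell and 1 rose in normal dogs. The part of these shifts in the results below was not tested.

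The probes that carry the main results are shown because each is what a value below measures. They are 60 bases long, in the sense direction, from the array files, with positions on canFam2. PSMB1 (chr12:75465093-75465152, minus strand) and PSMA4 (chr13:41417785-41417844, minus) are among the core genes called in both genotypes, PSMB5 (chr8:6351805-6351864, minus) is catalytic, and PSMD3 (chr9:25866430-25866489, minus) belongs to the cap. PSME1 (chr8:7139338-7139571, plus) and PSME3 (chr9:23506074-23506133, minus) are related activators. The PSME1 probe covers a genomic span of 234 bases and so crosses a splice junction. No capitals are used in these 6.
PSMB1: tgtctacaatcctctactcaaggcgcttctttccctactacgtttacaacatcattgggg
PSMA4: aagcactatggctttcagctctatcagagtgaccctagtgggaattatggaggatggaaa
PSMB5: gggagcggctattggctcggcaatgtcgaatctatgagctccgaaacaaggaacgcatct
PSMD3: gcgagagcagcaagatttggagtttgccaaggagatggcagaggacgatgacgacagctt
PSME1: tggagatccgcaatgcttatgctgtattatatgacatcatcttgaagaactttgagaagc
PSME3: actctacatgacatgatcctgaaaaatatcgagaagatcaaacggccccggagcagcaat

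Under its name PSME2 had 2 probes (chr8:7143027-7143086 and chr8:7143044-7143103, both minus strand). They share 43 bases and differ at 2 of them, here in capitals. The pair is shown because its probes gave like changes although their letters differ.
PSME2, probe used: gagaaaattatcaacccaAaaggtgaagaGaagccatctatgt
PSME2, other probe: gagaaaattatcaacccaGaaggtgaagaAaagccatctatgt

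In CNTF eyes PSME1 and PSME2 rose in both genotypes, and core genes rose in larger number in normal dogs. Of the 34 tested members, 6 rose and 3 fell in CNTF eyes of mutants (25 not called), where 11.6% of all probes tested rose and 17.3% fell. In CNTF eyes of normal dogs, 21 rose and 1 fell (12 not called), where 23.6% of all probes rose and 27.6% fell. As shares of members, 17.6% rose in mutants and 61.8% in normal dogs. The median difference was 0.12 over the members against -0.09 over all probes in mutants, and 0.38 against -0.09 in normal dogs. Groups did not overlap, CNTF eyes being higher, for 2 members in mutants (6.88% of all probes) and 15 in normal dogs (14.2%). CNTF eyes were lower without overlap for 2 members in mutants (7.87%), PSMF1 and PSMC3IP, and for 2 in normal dogs (15.8%), PSME4 and PSMC3IP.

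**Figure D1:**
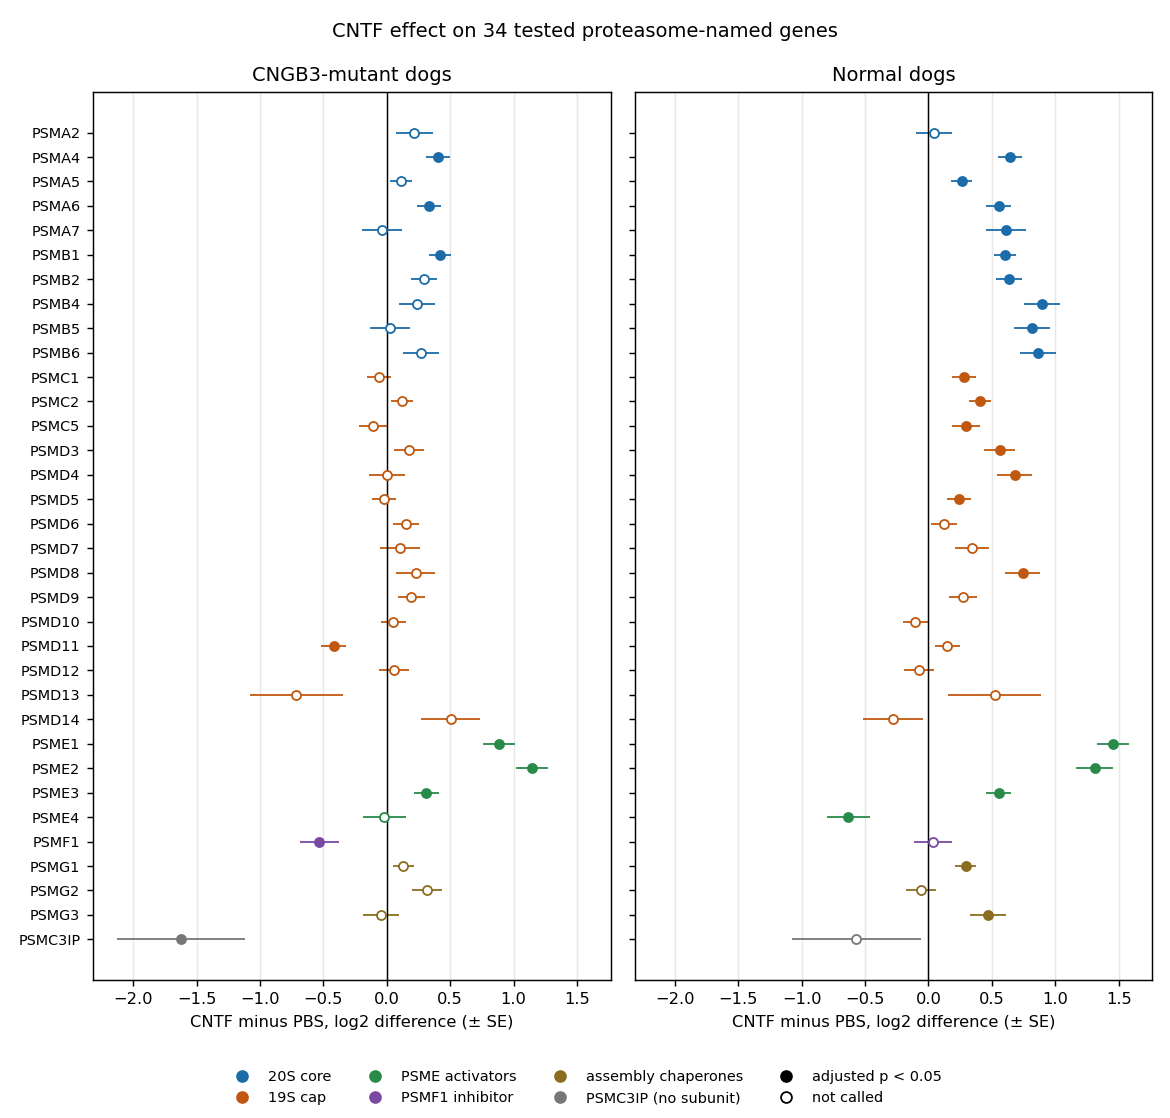
Each of the 34 tested members is a row, with its log2 difference of CNTF minus PBS eyes and its standard error in mutants and in normal dogs; filled points are called at an adjusted p under 0.05. PSME1 and PSME2 lie farthest to the right in both genotypes, and the core genes lie right of 0 in normal dogs with 9 of 10 called.

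By class, 3 of 10 tested core genes rose in mutants, with a median of 0.25, and 9 of 10 rose in normal dogs, with a median of 0.62. For the cap, none of 15 rose and 1 fell in mutants (median 0.06), while 7 of 15 rose in normal dogs (median 0.28). For the PSME activators, 3 of 4 rose in mutants (median 0.60), and 3 rose and 1 fell in normal dogs (median 0.93). Within the core, beta genes had medians of 0.27 in mutants and 0.82 in normal dogs, and alpha genes 0.22 and 0.55. Within the cap, the ATPase genes had medians of -0.07 in mutants and 0.29 in normal dogs. Over all probes tested, 11.6% rose and 17.3% fell in mutants, and 23.6% rose and 27.6% fell in normal dogs. The median over all probes was -0.09 in each genotype. These class values describe the chosen genes and carry no test of their own.

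Among the core beta genes, PSMB5 encodes the subunit with chymotrypsin-like activity. It read 3.17, 3.64, 2.96, 3.33 and 2.67 in CNTF eyes of mutants, against 2.79, 3.79, 3.03 and 2.74 in their PBS eyes, where dog 4 has no value because its spot was marked. Normal dogs read 3.28, 2.95, 3.38, 3.02 and 3.54 in CNTF eyes, against 2.83, 2.47, 2.13, 2.25 and 2.40 in PBS eyes. Every CNTF eye of a normal dog lay above every PBS eye, while in mutants the groups overlapped and only 1 of 4 dogs with both values was higher after CNTF. The difference was 0.024 ± 0.16 in mutants (adjusted p = 0.93, limma) and 0.82 ± 0.14 in normal dogs, a rise of 1.76-fold (adjusted p = 0.00133). With marked spots kept, PBS eye 4 of mutants read 2.16. The difference was then 0.23 ± 0.19 in mutants (adjusted p = 0.416) and 0.80 ± 0.19 in normal dogs (adjusted p = 0.00647).

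PSMB6 encodes the caspase-like subunit. It read 5.16, 5.56, 4.93, 5.26 and 4.80 in CNTF eyes of mutants, against 4.55, 5.31, 4.89, 5.03 and 4.60 in PBS eyes. Normal dogs gave 5.27, 4.87, 5.32, 5.03 and 5.51 in CNTF eyes, against 4.73, 4.45, 4.10, 4.21 and 4.20 in PBS eyes. CNTF eyes were higher in every dog, but in mutants the groups overlapped. The difference was 0.27 ± 0.14 in mutants (adjusted p = 0.183) and 0.86 ± 0.14 in normal dogs, 1.82-fold (adjusted p = 0.00072). PSMB7, the trypsin-like subunit, has no symbol on the array and is no member by the rule. The probe described as PSMB7 was 0.15 higher in mutants (adjusted p = 0.319) and rose by 0.60 in normal dogs (adjusted p = 0.000954).

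PSMB1 encodes a beta subunit with no active site, and was the beta gene called in both genotypes. CNTF eyes of mutants read 4.09, 4.33, 3.97, 4.45 and 4.14, against 3.57, 4.05, 3.67, 3.92 and 3.68 in PBS eyes. CNTF eyes of normal dogs read 4.22, 3.99, 4.25, 4.06 and 4.15, against 3.70, 3.51, 3.46, 3.49 and 3.51 in PBS eyes. The normal groups were apart, and in mutants only PBS eye 2 reached into the CNTF range. PSMB1 rose by 0.42 ± 0.09 in mutants (adjusted p = 0.0041) and 0.60 ± 0.09 in normal dogs (adjusted p = 0.00031), in 5 of 5 dogs each.

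PSMB4, another subunit without an active site, showed the widest rise of the core members in normal dogs. CNTF eyes read 5.35, 5.75, 5.14, 5.39 and 4.78 in mutants, against 4.82, 5.63, 4.91, 5.18 and 4.69 in PBS eyes. In normal dogs they read 5.31, 5.01, 5.49, 5.15 and 5.61, against 4.79, 4.57, 4.22, 4.25 and 4.25 in PBS eyes. The groups overlapped in mutants and were apart in normal dogs, with differences of 0.24 ± 0.14 (adjusted p = 0.243) and 0.90 ± 0.14 (1.86-fold, adjusted p = 0.000583). The gene's other 2 probes gave 0.84 and 0.86 in normal dogs. PSMB2, also structural, read 3.64, 3.96, 3.46, 3.71 and 3.49 in CNTF eyes of mutants, against 3.16, 3.67, 3.27, 3.51 and 3.17 in PBS eyes. Normal dogs read 3.78, 3.47, 3.81, 3.61 and 3.63 in CNTF eyes, against 3.34, 3.1, 2.81, 2.89 and 2.98 in PBS eyes. It was 0.30 ± 0.10 higher in mutants (adjusted p = 0.0532, not called) and rose by 0.64 ± 0.10 in normal dogs (adjusted p = 0.000673), where the groups did not overlap.

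**Figure D2:**
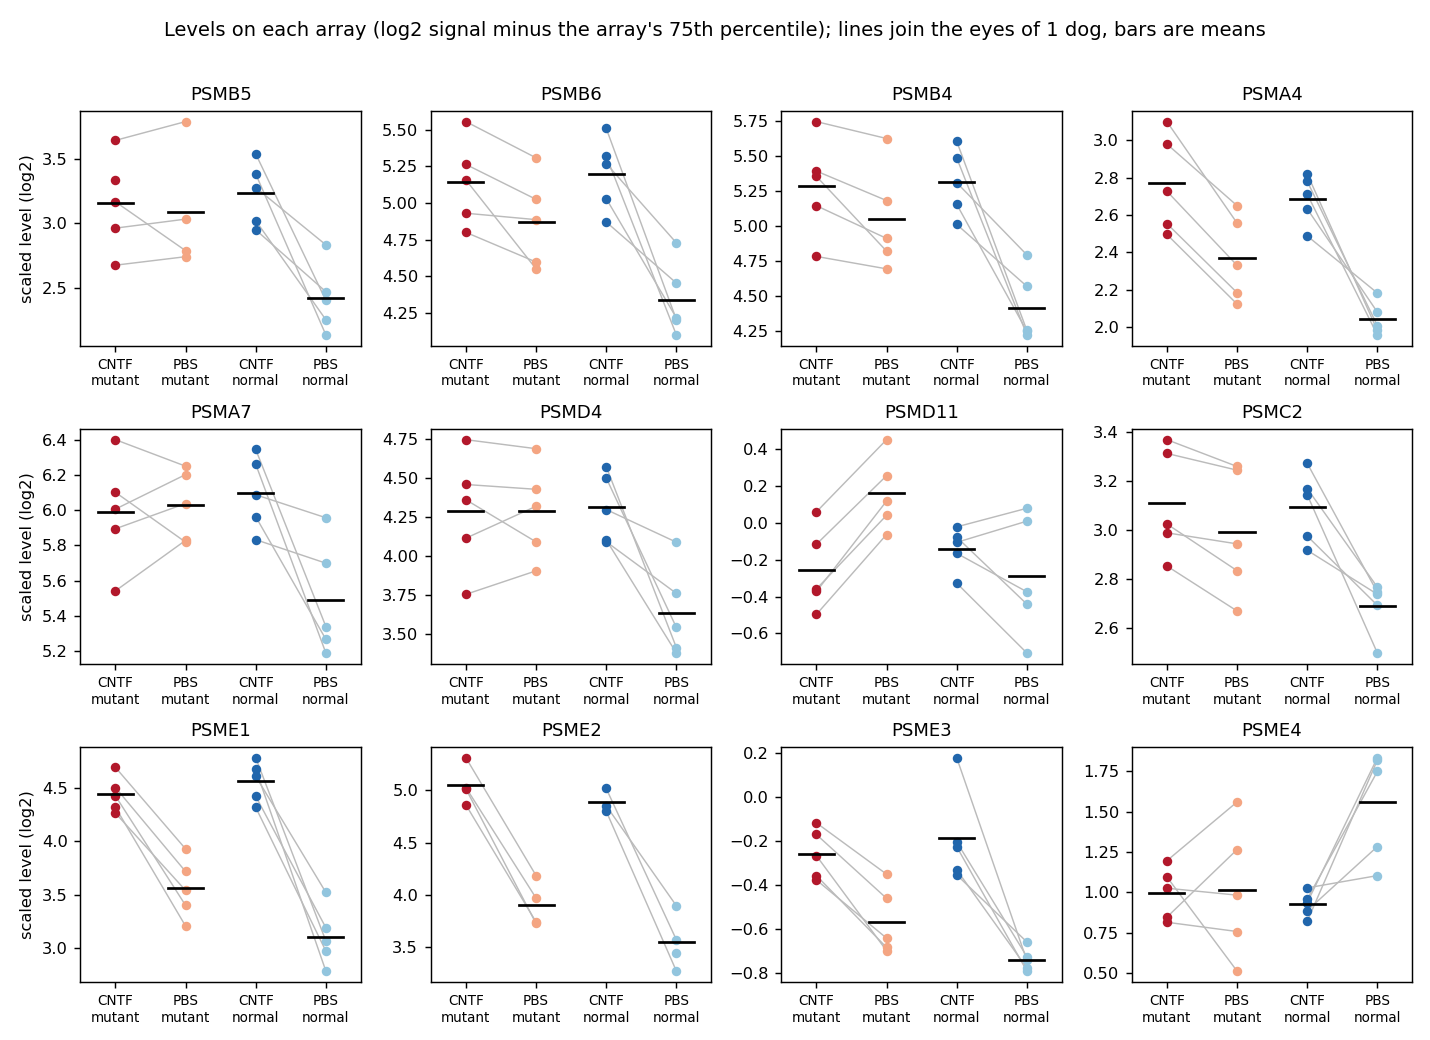
Points are single arrays of 12 members, in log2 signal relative to the array's 75th percentile, with a bar at the mean of each group and a line joining the eyes of a dog. For PSME1 both CNTF groups lie clear of both PBS groups, while for PSMB5 the PBS eyes of normal dogs lie lowest and those of mutants overlap both CNTF groups.

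Of the alpha genes, PSMA4 and PSMA6 rose in both genotypes. PSMA4 read 2.73, 3.1, 2.50, 2.98 and 2.55 in CNTF eyes of mutants, against 2.33, 2.56, 2.12, 2.65 and 2.19 in PBS eyes. The values in normal dogs were 2.78, 2.49, 2.71, 2.63 and 2.82 in CNTF eyes, against 2.01, 2.18, 1.96, 2.08 and 1.98 in PBS eyes. CNTF eyes were higher in every dog, without overlap in normal dogs, by 0.40 ± 0.10 in mutants (adjusted p = 0.00924) and 0.64 ± 0.10 in normal dogs (adjusted p = 0.000393). PSMA6 read 4.62, 4.86, 4.49, 4.91 and 4.45 in CNTF eyes of mutants, against 4.05, 4.63, 4.20, 4.56 and 4.21 in PBS eyes. Its levels in normal dogs were 4.63, 4.37, 4.74, 4.46 and 4.82 in CNTF eyes, against 4.07, 4.08, 4.03, 3.99 and 4.08 in PBS eyes. The PBS eyes of normal dogs lay close together and below every CNTF eye. PSMA6 rose by 0.33 ± 0.10 in mutants (adjusted p = 0.0224) and 0.55 ± 0.10 in normal dogs (adjusted p = 0.000991). The mutant call of PSMA6 held in only 2 of 5 fits that left out a mutant dog, with adjusted p between 0.0414 and 0.081.

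PSMA7, an alpha subunit on the outer ring, was called in normal dogs and not in mutants. It read 6.10, 6.4, 5.90, 6.01 and 5.54 in CNTF eyes of mutants, against 5.82, 6.25, 6.04, 6.20 and 5.83 in PBS eyes. The normal dogs gave 6.09, 5.83, 6.26, 5.96 and 6.35 in CNTF eyes, against 5.96, 5.70, 5.19, 5.27 and 5.34 in PBS eyes. The mutant groups lay within the same range, and in normal dogs only PBS eye 1 reached into the CNTF range. The difference was -0.04 ± 0.16 in mutants (adjusted p = 0.884) and 0.61 ± 0.16 in normal dogs (adjusted p = 0.00882), and the other probes of the gene gave 0.60 and 0.58 in normal dogs. The PSMA7 call in normal dogs was lost with quantile normalization and with the authors' deposited log2 values, where the difference was 0.22 both times, and with normexp background correction, limma's model-based alternative to the scanner's subtraction, where it was 0.54 (adjusted p = 0.114). PSMA5 rose by 0.26 ± 0.08 in normal dogs (adjusted p = 0.0251), a call kept in only 2 of 5 fits without a normal dog (adjusted p up to 0.0715), and was 0.11 higher in mutants, not called. With quantile normalization PSMA5 was at 0.07 in normal dogs and with the deposited values at 0.05. PSMA2 was not called in either, at 0.22 in mutants and 0.05 in normal dogs.

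The ATPases of the cap unfold substrates. None of the 3 ATPase members tested was called in mutants, and each rose in normal dogs, although all 3 calls were lost with quantile normalization and with the deposited values. The ATPase gene PSMC6, no member because it has no symbol on the array, fell by 0.74 in normal dogs (adjusted p = 0.0164). PSMC2 read 3.02, 3.31, 2.85, 3.37 and 2.99 in CNTF eyes of mutants, against 2.83, 3.24, 2.67, 3.26 and 2.94 in PBS eyes. For normal dogs the levels were 3.14, 2.92, 3.27, 2.98 and 3.17 in CNTF eyes, against 2.50, 2.74, 2.75, 2.69 and 2.77 in PBS eyes. Normal groups were apart, by 0.41 ± 0.09 (adjusted p = 0.00399), and mutant groups overlapped, at 0.12 ± 0.09 (adjusted p = 0.356). The PSMC2 difference in normal dogs was 0.22 with quantile normalization (adjusted p = 0.0646), 0.21 with the deposited values (0.0711) and 0.37 with normexp background correction (0.155). PSMC1 and PSMC5 rose by 0.28 ± 0.09 and 0.29 ± 0.11 in normal dogs (adjusted p = 0.0297 and 0.0457), in 4 of 5 dogs each, and were -0.07 and -0.11 in mutants. These small rises were fragile: leaving out 1 normal dog kept the call of PSMC1 in 1 of 5 fits (adjusted p 0.0131 to 0.109) and of PSMC5 in 2 of 5 (0.0206 to 0.158). With quantile normalization they were 0.11 and 0.09, and with the deposited values 0.09 and 0.07. The PSMC1 probe is placed on chromosome 35, while another, which shares 54 bases with 1 difference and gave 0.25 in normal dogs, is placed on chromosome 8, so which locus is read is uncertain. PSMC4, a further ATPase gene, could be fitted only with its marked spots kept, and then rose by 0.79 ± 0.18 in normal dogs (adjusted p = 0.0044) with 0.08 in mutants (adjusted p = 0.764).

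Among the PSMD genes, PSMD4 encodes a ubiquitin receptor. It read 4.36, 4.75, 4.11, 4.46 and 3.75 in CNTF eyes of mutants, against 4.09, 4.69, 4.32, 4.43 and 3.90 in PBS eyes. In normal dogs it read 4.30, 4.09, 4.57, 4.10 and 4.50 in CNTF eyes, against 4.09, 3.76, 3.41, 3.38 and 3.54 in PBS eyes. The mutant groups lay on top of each other, at 0.00063 ± 0.14 (adjusted p = 0.997), while the normal groups did not overlap, although the lowest CNTF eye and the highest PBS eye both read 4.09, at 0.68 ± 0.14 (adjusted p = 0.00281).

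PSMD8, a subunit of the lid, rose by 0.74 ± 0.14 in normal dogs (adjusted p = 0.00196), where CNTF eyes read 3.55, 3.27, 3.54, 3.28 and 3.83 against 3.14, 2.90, 2.45, 2.66 and 2.61 in PBS eyes. In mutants it was 0.23 ± 0.16 higher (adjusted p = 0.31). PSMD3, another lid subunit, read 1.28, 0.77, 1.24, 0.85 and 1.5 in CNTF eyes of normal dogs, against 1.14, 0.36, 0.35, 0.41 and 0.58 in PBS eyes, where eye 1 lay among the CNTF values. It rose by 0.56 ± 0.12 in normal dogs (adjusted p = 0.00311), and its second probe by 0.84. In mutants those probes gave 0.17 and -0.03, neither called. PSMD5 encodes a chaperone that helps to build the cap and leaves it, as do PSMD9 and PSMD10. PSMD5 rose by 0.24 ± 0.09 in normal dogs (adjusted p = 0.0485), a call that 1 of 5 fits without a normal dog kept (adjusted p 0.0233 to 0.175), and other PSMD5 probes were not called. It was 0.16 with quantile normalization and 0.14 with the deposited values, not called. PSMD2, the large scaffold of the cap base, rose by 0.67 ± 0.18 in normal dogs with its marked spots kept (adjusted p = 0.010), and in mutants its adjusted p was 0.999.

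One cap gene fell in mutants. PSMD11, a lid subunit known to promote assembly of the whole particle, read -0.36, 0.06, -0.37, -0.12 and -0.50 in CNTF eyes of mutants, against 0.04, 0.45, 0.12, 0.26 and -0.06 in PBS eyes. Normal dogs read -0.02, -0.11, -0.08, -0.33 and -0.16 in CNTF eyes, against 0.08, 0.01, -0.44, -0.71 and -0.37 in PBS eyes. All 5 mutants were lower in the CNTF eye, though mutant 2 was high in both eyes so that the ranges overlapped. PSMD11 fell by 0.42 ± 0.10 in mutants (adjusted p = 0.00857), and was 0.15 ± 0.10 higher in normal dogs (adjusted p = 0.225). The PSMD11 call was lost with normexp background correction, at -0.26 (adjusted p = 0.209), and without the pairing of eyes as a replicate block (adjusted p = 0.0508). PSMD14, the deubiquitinase of the lid, varied widely between arrays and was not called, at 0.50 ± 0.23 in mutants and -0.28 ± 0.23 in normal dogs. PSMD13, a lid subunit, had 1 array far below the rest, at -1.96 in the CNTF eye of mutant 3 where the other CNTF eyes of mutants read 0.69 to 1.33. It was not called in mutants, at -0.72 ± 0.37, or in normal dogs, at 0.52 ± 0.37. Without mutant 3 the residual spread of PSMD13 was smaller and the same 0.52 in normal dogs had an adjusted p of 0.0207. PSMD6, PSMD7, PSMD9, PSMD10 and PSMD12 were not called in either genotype, at 0.05 to 0.19 in mutants and -0.10 to 0.35 in normal dogs. PSMD7 had its spot marked on 4 arrays. With marked spots kept it rose by 0.37 ± 0.12 in normal dogs (adjusted p = 0.024, limma) and was at 0.16 in mutants (adjusted p = 0.354).

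PSME1 and PSME2 form the mixed ring of the interferon-inducible activator, and showed the largest rises of the members. PSME1 read 4.32, 4.69, 4.27, 4.51 and 4.43 in CNTF eyes of mutants, against 3.21, 3.93, 3.54, 3.72 and 3.40 in PBS eyes. The values in normal dogs were 4.61, 4.42, 4.68, 4.32 and 4.78 in CNTF eyes, against 3.52, 3.19, 2.79, 2.97 and 3.07 in PBS eyes. Every CNTF eye lay above every PBS eye of either genotype. PSME1 rose by 0.88 ± 0.13 in mutants (1.84-fold, adjusted p = 0.000363) and 1.46 ± 0.13 in normal dogs (2.74-fold, adjusted p = 7.8e-06), and its second probe gave 0.92 and 1.40.

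PSME2 read 5.01, 5.31, 5.03 and 4.86 in CNTF eyes of mutants 1, 2, 3 and 5, against 3.73, 4.19, 3.97 and 3.74 in PBS eyes. Mutant 4 has no value because both spots were marked. The normal dogs gave 4.85, 5.02 and 4.80 in CNTF eyes 1, 2 and 4, against 3.90, 3.57, 3.45 and 3.27 in PBS eyes 1 to 4. CNTF and PBS eyes were apart throughout, and PSME2 rose by 1.15 ± 0.13 in mutants (2.22-fold, adjusted p = 0.000307) and 1.31 ± 0.15 in normal dogs (2.48-fold, adjusted p = 0.000263). The overlapping second probe shown above gave 0.96 and 1.48. A dimmer probe, matched to PSME2 only by its description, disagreed. That probe was at 0.23 in mutants (adjusted p = 0.37) and -0.34 in normal dogs (adjusted p = 0.128), not called in either. The PSME1 and PSME2 probes lie 3456 bases apart on chromosome 8.

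PSME3 encodes the nuclear activator, which forms a ring of its own. It read -0.36, -0.17, -0.38, -0.12 and -0.27 in CNTF eyes of mutants, against -0.69, -0.46, -0.64, -0.35 and -0.70 in PBS eyes. For normal dogs the levels were -0.20, -0.35, -0.33, 0.18 and -0.23 in CNTF eyes, against -0.73, -0.66, -0.78, -0.74 and -0.79 in PBS eyes. CNTF eyes were higher in all 10 dogs, with overlap in mutants only. PSME3 rose by 0.31 ± 0.10 in mutants (adjusted p = 0.0346) and 0.55 ± 0.10 in normal dogs (adjusted p = 0.00112). The mutant call was lost whichever mutant was left out (adjusted p 0.0672 to 0.11).

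PSME4 encodes PA200, a large nuclear cap, and went the other way. It read 0.85, 0.81, 1.03, 1.10 and 1.20 in CNTF eyes of mutants, against 1.26, 0.76, 0.98, 0.51 and 1.56 in PBS eyes. In normal dogs it read 1.03, 0.89, 0.94, 0.96 and 0.82 in CNTF eyes, against 1.10, 1.28, 1.83, 1.75 and 1.82 in PBS eyes. CNTF eyes of normal dogs all lay below their PBS eyes, while in mutants the narrow CNTF range sat inside the PBS range. PSME4 fell by 0.63 ± 0.17 in normal dogs (adjusted p = 0.00985) and was at -0.02 ± 0.17 in mutants (adjusted p = 0.946). Its probes disagreed in mutants: among 4 others, 2 fell there by 0.61 and 0.53 (adjusted p = 0.0261 and 0.0158), and those 2 fell by 0.98 and 1.07 in normal dogs.

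PSMF1 encodes an inhibitor of the core. It read -1.79, -1.55, -1.67, -1.67 and -1.86 in CNTF eyes of mutants, against -1.27, -0.83, -1.18, -1.09 and -1.51 in PBS eyes. Normal dogs read -1.75, -1.87, -1.55, -1.76 and -1.21 in CNTF eyes, against -1.09, -1.71, -1.98, -1.82 and -1.73 in PBS eyes. Every CNTF eye of a mutant was below every PBS eye, and in normal dogs the groups overlapped. PSMF1 fell by 0.53 ± 0.15 in mutants (adjusted p = 0.0229), and was 0.04 ± 0.15 higher in normal dogs (adjusted p = 0.854). Leaving out a mutant kept the call in 1 of 5 fits (adjusted p 0.0408 to 0.0733), and with normexp background correction PSMF1 was at -0.16 in mutants (adjusted p = 0.568).

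The assembly chaperones PSMG1 and PSMG3 rose in normal dogs and were not called in mutants. PSMG1, which pairs with PSMG2 to start the alpha ring, read 1.07, 1.06, 1.10, 1.06 and 1.32 in CNTF eyes of normal dogs, against 0.93, 0.83, 0.85, 0.67 and 0.88 in PBS eyes. The groups were apart, by 0.29 ± 0.08 (adjusted p = 0.0139), and the mutants gave 0.13. PSMG3 rose by 0.47 ± 0.14 in normal dogs (adjusted p = 0.0179), with 3 of 5 fits keeping the call when a normal dog was left out (adjusted p 0.00879 to 0.0741). Both eyes of mutant 3 had PSMG3 far below the other mutants, at -3.77 after CNTF and -3.54 after PBS. PSMG2 was 0.31 higher in mutants and -0.06 in normal dogs, not called.

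PSMC3IP, which is no proteasome gene, fell by 1.62 ± 0.51 in mutants (adjusted p = 0.0337) and was at -0.57 ± 0.51 in normal dogs (adjusted p = 0.36). It read 0.73, 0.83, -3.10, 0.69 and 0.54 in CNTF eyes of mutants, against 1.37, 1.47, 1.80, 1.73 and 1.43 in PBS eyes. The values in normal dogs were 0.72, 0.73, 1.04, 0.70 and 0.89 in CNTF eyes, against 1.57, 1.63, 1.39, 1.12 and 1.21 in PBS eyes. CNTF eyes were below PBS eyes in both genotypes without overlap, and the CNTF eye of mutant 3 stood far below. Without mutant 3 the fall in mutants was 0.80 (adjusted p = 0.00212), and without mutant 4 the call was lost (adjusted p = 0.0556). The same -0.57 in normal dogs was called without mutant 3 (adjusted p = 0.00416, limma), since all arrays share 1 estimate of the spread.

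Class medians within each dog show how evenly the core and cap moved. The core median of CNTF minus PBS eye was 0.44, 0.19, 0.21, 0.24 and 0.22 in mutants 1 to 5, and 0.52, 0.34, 0.89, 0.64 and 0.79 in normal dogs 1 to 5. The cap median was 0.05, 0.03, -0.03, 0.12 and 0.05 in mutants, and 0.17, 0.17, 0.49, 0.38 and 0.47 in normal dogs. The core median was thus above the cap median in every dog of both genotypes. In the core, only mutant 1 reached above the lowest normal dog, normal dog 2. PSME medians ranged from 0.50 to 0.73 in mutants and 0.45 to 1.14 in normal dogs, and rest on 3 genes without PSME2 in mutant 4 and normal dogs 3 and 5.

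**Figure D3:**
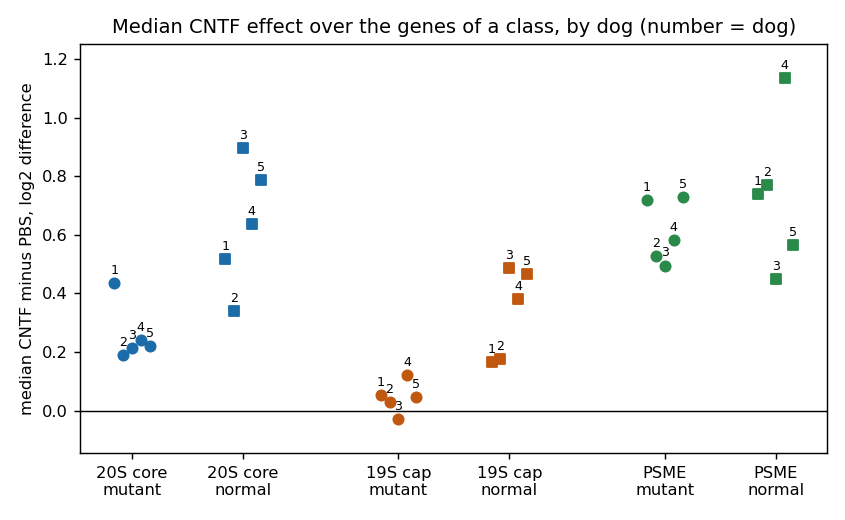
Each point is 1 dog, giving the median log2 difference of CNTF minus PBS eye over the tested genes of the core, the cap and the PSME activators, with mutants left of normal dogs. Core medians are above 0 in all 10 dogs and cap medians lie between -0.03 and 0.12 in mutants and between 0.17 and 0.49 in normal dogs.

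Whether the CNTF effect differed between genotypes was tested directly. None of the 34 members was called by limma for the difference of the effects, mutant minus normal, nor was any of the 29334 probes (0.0% in either direction). At an unadjusted p under 0.05 there were 3 members higher and 16 lower, against 13.6% and 21.0% of all probes. The median of this difference was -0.28 over the members against -0.06 over all probes. The 3 members with the lowest p were PSMD11 at -0.57 ± 0.14, PSMB5 at -0.79 ± 0.21 and PSMD4 at -0.68 ± 0.20, each with an adjusted p of 0.103. With its marked spot kept, PSMB5 was at -0.57 ± 0.27 (adjusted p = 0.162). The larger number of core genes called in normal dogs is therefore not shown to be a difference between genotypes.

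Genotypes were also compared within each treatment. In PBS eyes, mutants had 0 members called against normal dogs by limma, where 0.0102% of all probes were higher and 0.017% lower. At an unadjusted p under 0.05, 16 members were higher and 2 lower in mutants (20.4% and 14.2% of all probes). The median was 0.28 over the members and 0.01 over all probes, and 1 member, PSMD9, was higher without overlap (3.13%) and none lower (2.27%). A brighter probe, matched to PSMD9 only by its description, disagreed: its groups overlapped, at 0.02 (adjusted p = 0.904, limma). PSMB4 was higher in PBS eyes of mutants by 0.63 ± 0.19, PSMD4 by 0.65 ± 0.18 and PSMA7 by 0.54 ± 0.17, each with an adjusted p of 0.0953. Without normal dog 1, whose PBS eye was the highest of its group for 20 of the 34 members, 10 members were called higher and 1 lower, where 13.6% of all probes were called higher and 7.77% lower. In CNTF eyes 0 members were called (0.0% of probes higher and 0.00681% lower), 0 had an unadjusted p under 0.05 (1.87% and 3.74%), and the median was -0.03. CNTF minus PBS contrasts and these genotype contrasts share arrays, so they are not separate evidence.

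**Figure D4:**
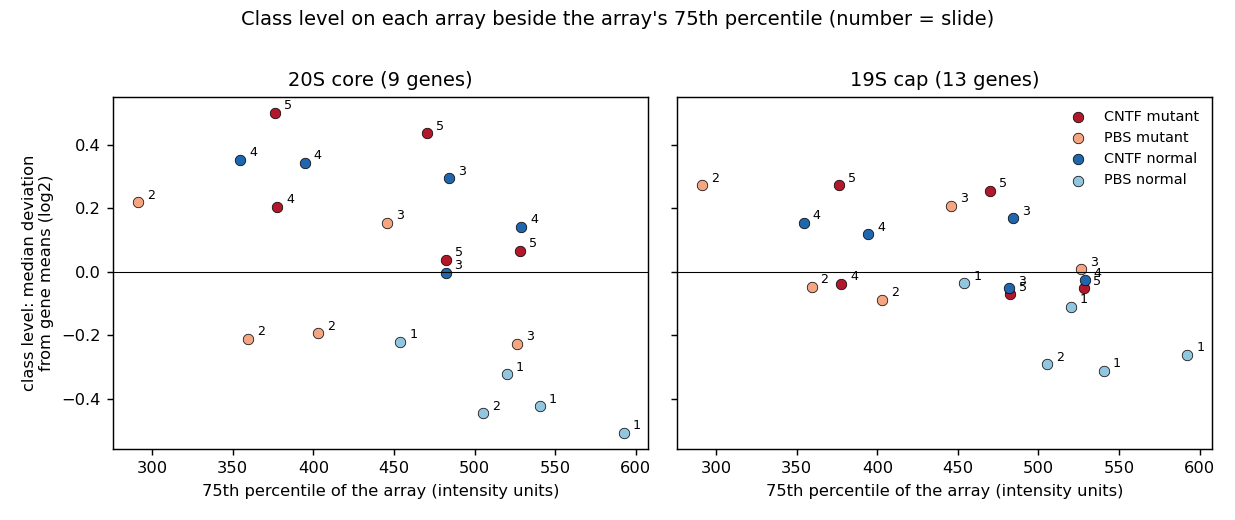
Each point is 1 array, with its 75th percentile in intensity units across and its class level (the median deviation of genes from their mean over all arrays, log2) upward, over the 9 core and 13 cap genes measured on every array; the number is the slide. For the core, PBS eyes of normal dogs lie lowest, at -0.51 to -0.22, and PBS eyes of mutants, at -0.23 to 0.22, reach into the range of CNTF eyes.

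Array brightness was set beside the core level, taken as the median deviation of 9 core genes from their means. Within each group the core level was highest on the array with the lowest 75th percentile. These arrays were mutant CNTF eye 2, mutant PBS eye 2, normal CNTF eye 5 and normal PBS eye 1. Those percentiles ran from 376 to 528.1 intensity units in CNTF eyes and 291 to 526.3 in PBS eyes of mutants, and from 354.4 to 528.8 in CNTF eyes and 453.9 to 592.5 in PBS eyes of normal dogs. The share of probes well above background ran from 51.7 to 69.5% in CNTF eyes and 60.2 to 66.0% in PBS eyes of mutants, and from 56.0 to 64.9% in CNTF eyes and 66.8 to 71.6% in PBS eyes of normal dogs. The part of array brightness in the results was not tested.

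Slides were examined because treatment and slide overlap. With the slide as a block and no dog block, no member was called in either genotype. Few probes were called at all, 795 of 29204 in mutants (1.71% higher and 1.01% lower) and 1146 of 29280 in normal dogs (2.94% and 0.97%). Relative to all probes, the cap of mutants then stood at -0.04. Core medians were 0.15 in mutants and 0.61 in normal dogs, cap medians -0.16 and 0.44, and PSME medians 0.35 and 0.44. In normal dogs PSME2 had no value with this block, so the PSME median of 0.44 is the value of PSME3. PSME1 was there at 1.45 (adjusted p = 0.0625). Within slide 3, CNTF eyes of normal dogs minus PBS eyes of mutants (2 arrays each) gave a core median of 0.22, a cap median of 0.03 and a PSME median of 0.60, against -0.06 over all probes. In slide 2, PBS eyes of mutants minus the PBS eye of normal dog 5 gave 0.37 for the core and 0.40 for the cap, against 0.09 over all probes. In slide 4 the CNTF eye of mutant 1 minus CNTF eyes of 3 normal dogs gave -0.08 and -0.10, close to the -0.07 over all probes. PSME1 and PSME2 differed by 0.96 and 1.19 within slide 3. For PSME2 the only PBS eye was that of mutant 5, since mutant 4 has no value.

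Background correction changed where the core and cap of mutants stood. With normexp correction the median of all probes moved to 0.17 in mutants and 0.09 in normal dogs, and calls over all probes were 1846 higher and 1452 lower in mutants and 3520 higher and 2238 lower in normal dogs, against 3409 and 5064, and 6912 and 8108, with the processed signal. Relative to the median of all probes, the core stood at -0.17 in mutants and 0.46 in normal dogs with normexp, against 0.34 and 0.71 with the processed signal. The cap stood at -0.25 and 0.14 with normexp, against 0.15 and 0.37. PSME genes stood above all probes both ways, at 0.31 and 0.80 with normexp. Members called higher with normexp were 2 in mutants, PSME1 and PSME2, and 11 in normal dogs, all of them among the 21. PSMA4, PSMA6 and PSMB1 then had differences of 0.15, 0.03 and 0.12 in mutants with no call, and PSME3, PSMD11 and PSMF1 were not called there either.

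**Figure D5:**
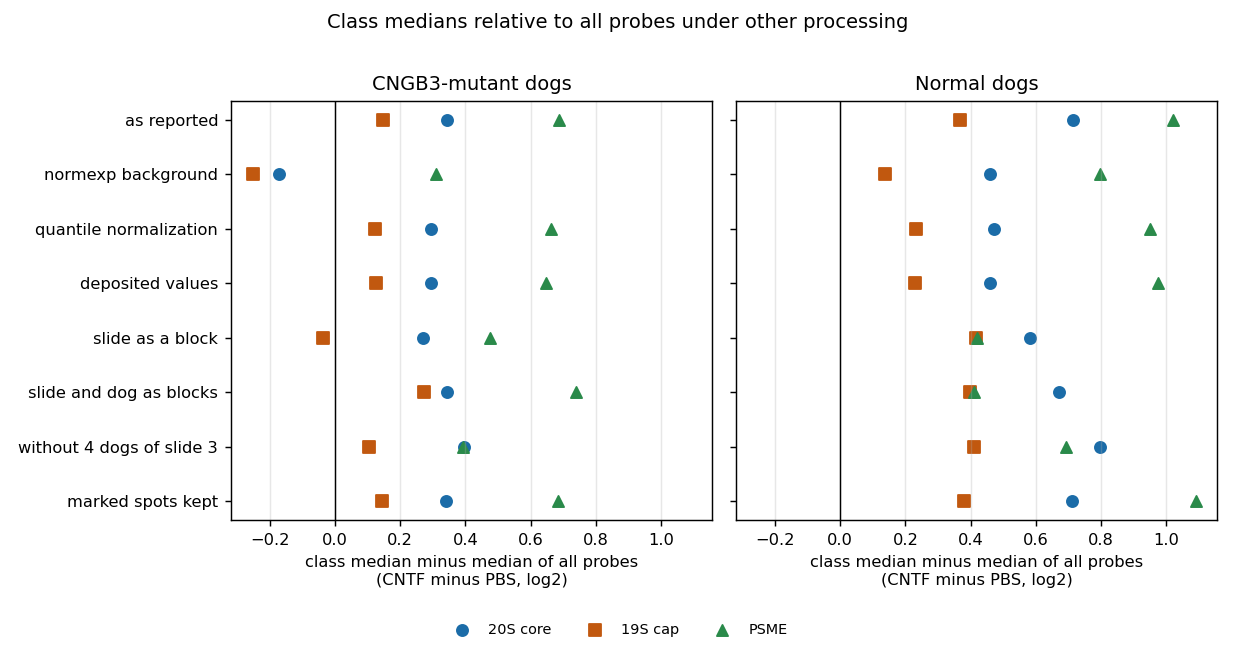
Points give the class median of CNTF minus PBS eyes minus the median of all probes, on the log2 scale, for the core, cap and PSME genes in mutants (left) and normal dogs (right), with 1 row per way of processing. In normal dogs all points lie above 0, while in mutants the core lies below 0 with normexp background correction and the cap with normexp and with the slide as a block.

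The inducible subunits that the rule leaves out had differences larger than that of any member. PSMB8 rose by 4.30 in mutants and 4.51 in normal dogs, PSMB9 by 3.24 and 4.17, and PSMB10 by 3.59 and 3.99. With the loading genes of the same list, 7 of 7 tested genes rose in each genotype. The conjugation genes of the ubiquitin-like ISG15 and FAT10 also rose, 5 of 5 in each, with ISG15 at 4.23 and 5.05, its E2 enzyme UBE2L6 at 2.56 and 3.18 and its E1 enzyme UBA7 at 1.90 and 2.08. These lists are dominated by interferon-inducible genes. Over all probes, 11.6% rose in mutants and 23.6% in normal dogs.

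Other genes of the ubiquitin system were called in smaller numbers. For comparison, 11.6% of all probes rose and 17.3% fell in mutants, and 23.6% rose and 27.6% fell in normal dogs. Of 23 ubiquitin-conjugating E2 genes, 3 rose and 1 fell in mutants and 10 rose and 3 fell in normal dogs. UBE2C rose by 2.64 in mutants and 2.72 in normal dogs, UBE2E1 by 0.56 and 0.75, and UBE2V1 by 0.73 and 0.71. Of 11 proteasome partners, 1 rose and 2 fell in mutants and 3 rose and 2 fell in normal dogs, with AKIRIN2, the nuclear import factor of proteasomes, up by 0.40 and 0.83. Of 6 shuttle and receptor genes, none was called in mutants, and 3 rose and 1 fell in normal dogs, where NPLOC4 rose by 0.64, BAG6 rose by 0.57 and RAD23B fell by 0.36. Of 5 ubiquitin and E1 genes, none was called in mutants, and 1 rose and 1 fell in normal dogs, where UBA3, part of the E1 enzyme of NEDD8, fell by 0.62.

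NFE2L1 encodes NRF1, the factor known to raise proteasome subunit genes together when proteasome capacity falls. It was at -0.28 in mutants and 0.20 in normal dogs, not called in either. Of the 8 tested genes of its control, 1 rose in mutants (11.6% of all probes), the stress factor gene NFE2L2 with 0.41. In normal dogs 3 rose (23.6%), NFE2L2 among them with 0.27, and 1 fell (27.6%). VCP, the segregase that frees NRF1 from the membrane, rose by 0.58 in normal dogs and was at 0.02 in mutants. SEL1L, of the degradation complex in the endoplasmic reticulum, fell by 0.80 in normal dogs and was at -0.36 in mutants.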

How the data were processed

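Retinal RNA of 20 eyes was hybridised to 1-colour Agilent arrays, with 100 ng of input RNA whose integrity number exceeded 8, per the labels' protocols. Intensity values are the processed signals that the authors' scanner software, Agilent Feature Extraction 9.5.3.1, wrote after background subtraction, per the file headers. The deposited value table holds log2 values, made with Partek 6.4 per the submitters' processing notes. Its columns share the same distribution and a median of 6.18, with slopes of 0.954 to 1.06 against log2 intensity, and it served only as an alternative.

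Each array's 1417 control spots and its spots with an outlier mark were dropped, and repeated spots were averaged. The log2 of each array's 75th percentile (291 to 592 intensity units) was then subtracted from log2 intensity. Probes well above background on 4 of 5 arrays of a group were kept (29466). Tests needed 3 arrays per group. limma 3.58.1 in R 4.3.3 fitted all 20 arrays with dogs as blocks and with CNTF terms for each genotype, two-sided, and genotypes were compared on 10 arrays within each treatment without covariates. Benjamini-Hochberg adjustment covered all probes tested, and the threshold was 0.05. The fit was tested on simulated data. Figures used Python 3.11.15 and matplotlib 3.10.9. The number of arrays limits the precision. Eyes were paired by dog through the genotype and running number in the sample titles, so the pairing is inferred. Normal dogs share sex and age, so apart from the CNGB3+/+ dog only the number pairs their eyes. The pairing was checked by correlating what remained in the 2 arrays of a dog after subtraction of group means. Over all probes without missing values this gave r of -0.15 to 0.69, and 4 of 10 dogs correlated best within themselves. Among the 500 most variable probes r was 0.173 to 0.734, with 9 of 10 dogs doing so.

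Gene names are those of the array files, checked against a table of the assembly UU_Cfam_GSD_1.0, and exons were not assigned. Printed values follow a rule: the catalytic genes, PSME1 to PSME4, PSMF1, the 4 members of each class with the lowest adjusted p in each CNTF comparison, the 3 lowest for the other comparisons, up to 3 genes of each other list, members called against most of their class, and probes that disagree. A gene of these lists that the rule picks is not reported here. The members, the lists and this rule were chosen with earlier results of these data known. The lists were proteasome partners, inducible subunits and peptide loading, NRF1 control, ubiquitin shuttles, ubiquitin and E1, E2, ISG15 and FAT10 conjugation, and markers of photoreceptors, microglia, T cells, pigment epithelium, endothelium, Müller glia and red cells. Alternatives covered background correction, normalization, the filter on dim probes, blocks, marked spots, the choice of probe and leaving out each dog. Keeping marked spots, leaving out the dogs of slide 3 and adding genes found by description were chosen after seeing the data.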

Additional observations from a re-analysis of the deposited data

Results flagged for a closer look

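In 134 groups of 4 or 5 arrays (all tested members in each group), 9 had an array that stood far from the others of its group, by the gap to its nearest neighbour over the range. Chance alone flags about 1 in 20. Of mutants, CNTF eye 3 was the lowest of its group for PSMD13 at -1.96 (others 0.69 to 1.33), for PSMG3 at -3.77 (others -0.35 to 0.58) and for PSMC3IP at -3.1 (others 0.54 to 0.83). PSMG3 was also low in the PBS eye of the same dog, at -3.54.

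Among normal dogs, CNTF eye 4 was the lowest for PSMD9 at -0.14 (others 0.53 to 0.68) and the highest for PSME3 at 0.18 (others -0.35 to -0.2). CNTF eye 5 was the lowest for PSMA2 at 2.07 (others 2.38 to 2.47) and the highest for PSMG1 at 1.32 (others 1.06 to 1.1). PBS eye 1 was the highest for PSMB1 at 3.7 (others 3.46 to 3.51) and the lowest for PSMC2 at 2.5 (others 2.69 to 2.77).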

How the results depend on the processing

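Under the 23 alternatives run for each, no member was called for the difference of the CNTF effect between genotypes, or between genotypes in CNTF eyes. Of 3291 values of named genes under an alternative, 2952 kept direction and side of the threshold, 149 lost a call, 30 gained one and 160 turned sign, 4 of them with a call in either fit. Members called higher in CNTF eyes of normal dogs (21) were 11 with normexp background, 15 with quantile normalization and with the deposited values, and 0 with the slide as a block or slide and dog as blocks; leaving out a dog gave 16 to 20. The 1 lower became 0 with normexp and with either slide block, 2 without the 4 dogs of slide 3 or with genes found by description added, and 1 to 2 on leaving out a dog (2 without mutant 3). In mutants, the 6 higher became 2 with normexp, 0 with either slide block, 1 without the dogs of slide 3 and 4 to 7 on leaving out a dog, and the 3 lower became 1 with normexp and 0 with either slide block, and 1 to 3 on leaving out a dog (1 without mutant 4). Without the replicate block, that is without the pairing of eyes, 16 members rose and 1 fell in normal dogs, and 5 rose and 2 fell in mutants. The slide and dog blocks together left 4 residual degrees of freedom. In that fit 0 of 29221 probes were called in normal dogs and 47 of 29119 in mutants, so the loss of member calls is not particular to the members. In normal dogs, the core median was 0.40 with quantile normalization and 0.38 with the deposited values, the cap median 0.44 with the slide block, and the PSME median 0.55 for probes above background on all arrays, 0.44 with the slide block, 0.35 with slide and dog as blocks, 0.65 without the dogs of slide 3 and 0.46 to 0.94 on leaving out a dog. In mutants, the core median was 0.0040 with normexp, 0.15 with the slide block and 0.14 with slide and dog as blocks, the cap median -0.078 with normexp and -0.16 with the slide block, and the PSME median 0.48 with normexp, 0.31 for probes above background on all arrays, 0.35 with the slide block, 0.30 without the dogs of slide 3 and 0.31 to 0.62 on leaving out a dog. PSME2 had too few arrays to be fitted without normal dog 1, 2 or 4 and without the dogs of slide 3. It had no value either for probes above background on all arrays and, in normal dogs, with either slide block. In all these fits the PSME median is the value of PSME3. PSME1 was at 1.45 in normal dogs with the slide block and at 1.42 with slide and dog as blocks, not called. The core and cap medians of the difference between genotypes (both -0.29) were -0.09 and -0.11 with quantile normalization, -0.12 and -0.15 with the deposited values, -0.50 and -0.42 with normexp, and -0.31 and -0.49 with slide and dog as blocks. In PBS eyes, members called higher in mutants were 0 to 10 and lower 0 to 1 on leaving out a dog, the highest without normal dog 1 (13.6% of all probes higher and 7.77% lower), and 7 and 3 without the dogs of slide 3 (12.0% and 9.58%). With the slide block PSMA5 and PSMG3 in normal dogs turned to -0.0030 and -1.39. With slide and dog as blocks PSMC5 in normal dogs turned to -0.051 and PSMC3IP in mutants to 0.68. Apart from the missing PSME2 values, the cause of these changes was not tested.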

Other observations

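Further subunit genes carry no symbol on the array and were found by their description only, so they are no members. PSMB3, a structural beta subunit, rose by 1.13 in normal dogs (adjusted p = 0.00111, limma), above any core member, and its second probe by 0.99. PSMD1, a scaffold of the cap base, rose by 0.52 (adjusted p = 0.0017), while its other probes gave 0.01 to 0.46, and the ATPase gene PSMC3 rose by 0.44 (adjusted p = 0.00697). The ATPase gene PSMC6 fell by 0.74 in normal dogs (adjusted p = 0.0164) and was at -0.15 in mutants (adjusted p = 0.653). PSMA3, an alpha subunit, rose by 0.47 in mutants (adjusted p = 0.041) and was at 0.03 in normal dogs. Its overlapping second probe was at 0.42 in mutants, not called (adjusted p = 0.0897), and another at -0.0053 (adjusted p = 0.987). PSMG4 was not above background. With these genes, 7 of 40 tested rose and 3 fell in mutants (11.6% and 17.3% of all probes). In normal dogs 25 rose and 2 fell (23.6% and 27.6%).

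Of 19 tested markers of other cell types, 2 rose and 6 fell in mutants (11.6% and 17.3% of all probes), and 5 rose and 5 fell in normal dogs (23.6% and 27.6%). Of 4 tested T cell markers, 2 rose and 1 fell in mutants, and 1 rose and 1 fell in normal dogs. Of 6 pigment epithelium markers, 2 fell in each genotype. Of 4 endothelial markers, 1 fell in mutants, and 2 rose and 1 fell in normal dogs. Of 5 Müller glia markers, 2 fell in mutants, and 2 rose and 1 fell in normal dogs. Red cell markers had no named probe.

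The probes of PSMB4 and PSMD4 lie 148966 bases apart on chromosome 17, and those of PSMB5 and PSMB11 lie 7204 bases apart on chromosome 8. PSMB4 and PSMD4 both rose in normal dogs, while PSMB11 stayed near background.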
